A study of Mus musculus with 6 samples.

Results

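Mitochondrial ribosomal protein genes, 78 of the 55359 genes in the deposited table, were followed in whole lungs of 6 mouse embryos. Members were every row whose symbol is Mrpl (large subunit) or Mrps (small subunit) followed by a number and at most 1 further letter, which gave 49 large and 29 small subunit symbols. The lungs were taken at stage E18.5, shortly before birth, from the C57 strain. In all, 3 lungs carried the genotype label wild type and 3 the label Prmt5 knockdown, and no further treatment is given for either. The series text describes a Prmt5 knockout specific to Dermo1 (Twist2) cells of the mesenchyme, while the sample labels say knockdown. The allele and the litters are not given in the labels, and the growth conditions are worded alike for both groups. Where nothing says that lungs came from separate litters, p-values measure only the spread between these samples, part of which may be technical. They may not hold for other litters.

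Mitochondrial ribosomes translate the few proteins that the mitochondrial genome encodes, all of them parts of the respiratory chain or of ATP synthase. Their RNAs come from mitochondrial DNA, but all their proteins are encoded in the nucleus, made in the cytosol and imported. Some of these proteins have a relative in bacterial ribosomes and others were added in mitochondria. The large subunit joins the amino acids and holds the exit tunnel, and the small subunit reads the messenger. Tissues rich in mitochondria, heart muscle above all, carry much of this machinery.

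Prmt5, the targeted gene, was at 11.68, 11.77 and 12.24 FPKM (fragments per kilobase of exon, scaled to the library's total) in wild type replicates 1 to 3 and at 10.06, 11.85 and 12 FPKM in knockdown-labelled replicates 1 to 3. The groups overlapped, so the samples are called knockdown-labelled and every direction rests on the labels. Total counts were 14383415 to 19262837 per library, and 17728 genes were tested. The lung marker Sftpc stood at 7679 to 10212 FPKM, and none of the 13 lung epithelial, endothelial and mesenchymal markers was at 0 in any library. Judged by Xist and Ddx3y, the males were 1 of the wild type and 2 of the knockdown-labelled embryos. All 22 genes of a heart muscle list had positive log2 fold changes, with summed levels of 196 to 1608 FPKM in wild type and 1745 to 4798 FPKM in the knockdown-labelled lungs and no marker at 0. Lung epithelial markers had 0 of 5 past an unadjusted p of 0.05. By that p all 4 endothelial markers were lower, and of the 4 mesenchymal markers 1 was higher and 2 were lower. Over all genes tested, 8.48% were higher and 8.52% lower by that p, and 52.9% had a positive log2 fold change.

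Promoter windows in RefSeq (build GRCm38.p6) were found for 69 of the 78 members. They were searched on both strands for short letter motifs of factors known to act on nuclear genes for mitochondria. These were CCGGAAG for the ETS family, to which the nuclear respiratory factor Gabpa belongs, GCATGCGC for Nrf1, and ATGGCGGC for the core of Yy1. The 4 windows shown are, for each subunit and each of ETS and Nrf1, from the gene with the smallest p among those with that match before the start. Each is the 250 bases before the annotated start, 5′ to 3′ on the gene's strand, with the matches in capitals.

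Mrpl18, chr17:12916092-12916341, minus strand, ETS match: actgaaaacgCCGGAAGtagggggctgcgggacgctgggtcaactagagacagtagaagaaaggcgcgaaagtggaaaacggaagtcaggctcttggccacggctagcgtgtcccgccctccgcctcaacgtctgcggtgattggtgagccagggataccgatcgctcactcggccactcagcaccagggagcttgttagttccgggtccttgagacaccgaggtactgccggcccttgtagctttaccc
Mrps27, chr13:99344536-99344785, plus strand, ETS match in reverse complement: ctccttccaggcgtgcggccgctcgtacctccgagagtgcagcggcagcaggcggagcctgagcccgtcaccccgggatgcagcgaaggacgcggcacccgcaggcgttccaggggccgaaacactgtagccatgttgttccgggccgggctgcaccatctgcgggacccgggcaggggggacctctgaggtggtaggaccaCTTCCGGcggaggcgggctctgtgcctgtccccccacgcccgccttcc
Mrpl10, chr11:97041332-97041581, plus strand, Nrf1 match: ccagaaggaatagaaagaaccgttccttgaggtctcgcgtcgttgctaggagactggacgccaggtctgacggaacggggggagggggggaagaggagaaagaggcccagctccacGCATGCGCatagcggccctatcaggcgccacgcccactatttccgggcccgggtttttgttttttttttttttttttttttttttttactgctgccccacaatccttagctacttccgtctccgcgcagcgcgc
Mrps18b, chr17:35916441-35916690, minus strand, Nrf1 match: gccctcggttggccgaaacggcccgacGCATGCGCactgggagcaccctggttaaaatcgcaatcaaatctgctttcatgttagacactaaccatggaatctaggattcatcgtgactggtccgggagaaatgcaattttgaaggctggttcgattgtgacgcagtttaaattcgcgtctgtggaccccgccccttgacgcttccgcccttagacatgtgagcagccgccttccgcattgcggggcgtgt

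In windows of 300 bases (250 before and 50 after the start) the ETS letters were present in 26 of 69 members, or 37.7%, against 17.6% of 12524 tested genes and 9.93% of all 27025 genes with a window. The Nrf1 letters were in 8 members (11.6%, against 5.24% of tested and 3.05% of all genes). They were found in 7 of 43 large and 1 of 26 small subunit genes. The Yy1 core was in 12 members (17.4%, against 4.77% of tested and 2.6% of all genes), and 11 of its 12 matches lay at or after the start, where its ATG can also be a translation start. GGGCGG, the letters bound by Sp1, was in 49.3% of members against 64.3% of tested genes, and the E-box CACGTG in 7.25% against 10.9%. At least 1 of the ETS, Nrf1 and Yy1 motifs was present in 36 members (52.2%, against 25% of tested genes), with a median GC content of 58.7% in the members' windows against 59.7%. Members with the ETS letters had a median log2 fold change of 0.13 between the groups and the 43 without them 0.15. With and without the motif, the medians were 0.06 and 0.15 for Nrf1 (8 members with it) and 0.10 and 0.15 for Yy1 (12 members). They were 0.14 and 0.15 for Sp1 and 0.02 and 0.15 for the E-box (5 members). These differences were not tested. A match is a description of letters and not a site of binding. Because genes with several annotated starts count once if any window matches, they have more chances to match.

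Levels of the members in FPKM differed widely from each other and little between libraries. Because FPKM divides by exonic length, the order of the genes also depends on their annotated length. Mrps21 (739 bases) had 352 to 583 counts per library and Mrps35 (8631 bases) had 279 to 575, although they lie at opposite ends in FPKM. Mean wild type levels ran from 0.977 FPKM for Mrpl53 to 40.1 FPKM for Mrpl14, with a median of 8.38 FPKM against 4.99 FPKM for all genes tested. Large subunit genes had a median of 11.5 FPKM and small subunit genes of 6.40 FPKM. The median coefficient of variation among the 3 wild type libraries was 7.72% for the members and 9.47% for all genes tested, and single members had 7 to 1348 counts per library. All 78 members passed the filter on low counts.

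The top of the large subunit was Mrpl14, the gene of a protein at the interface of the subunits, with 40.39, 42.49 and 37.55 FPKM in wild type and 38.88, 40.20 and 35.78 FPKM in the knockdown-labelled lungs. Its groups overlapped. Mrpl24, whose product lines the exit of the tunnel, followed with 28.90, 30.25 and 30.50 FPKM in wild type and 37.13, 24.19 and 30.57 FPKM in the knockdown-labelled lungs, where replicate 1 was the highest of all libraries and replicate 2 the lowest. Mrpl54 came next at 26.4 ± 1.40 FPKM (SD, n = 3) in wild type. In the small subunit Mrps21 was highest (33.83, 33.12 and 32.03 against 34.46, 38.27 and 40.95 FPKM), before Mrps23 (17.9 ± 1.45 FPKM) and Mrps15 (17.5 ± 0.608 FPKM). Between the first-ranked and the next gene of each subunit the wild type libraries did not overlap, whereas those of Mrps23 and Mrps15 did.

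At the low end stood Mrpl53, a protein added in mitochondria, with 0.54, 1.41 and 0.98 FPKM in wild type and 0.63, 0.88 and 0.72 FPKM in the knockdown-labelled lungs. It had only 7 to 16 counts per library, and the gene overlaps Gm42688 and Ccdc142os. Mrpl23, a tunnel protein that also has a pseudogene row in the table, was at 1.63 ± 0.190 FPKM and Mrpl19 at 2.37 ± 0.190 FPKM in wild type. The lowest small subunit genes were Mrps25 (2.06 ± 0.194 FPKM), Mrps35 (2.56 ± 0.320 FPKM) and Mrps22 (2.71 ± 0.356 FPKM).

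**Figure D1:**
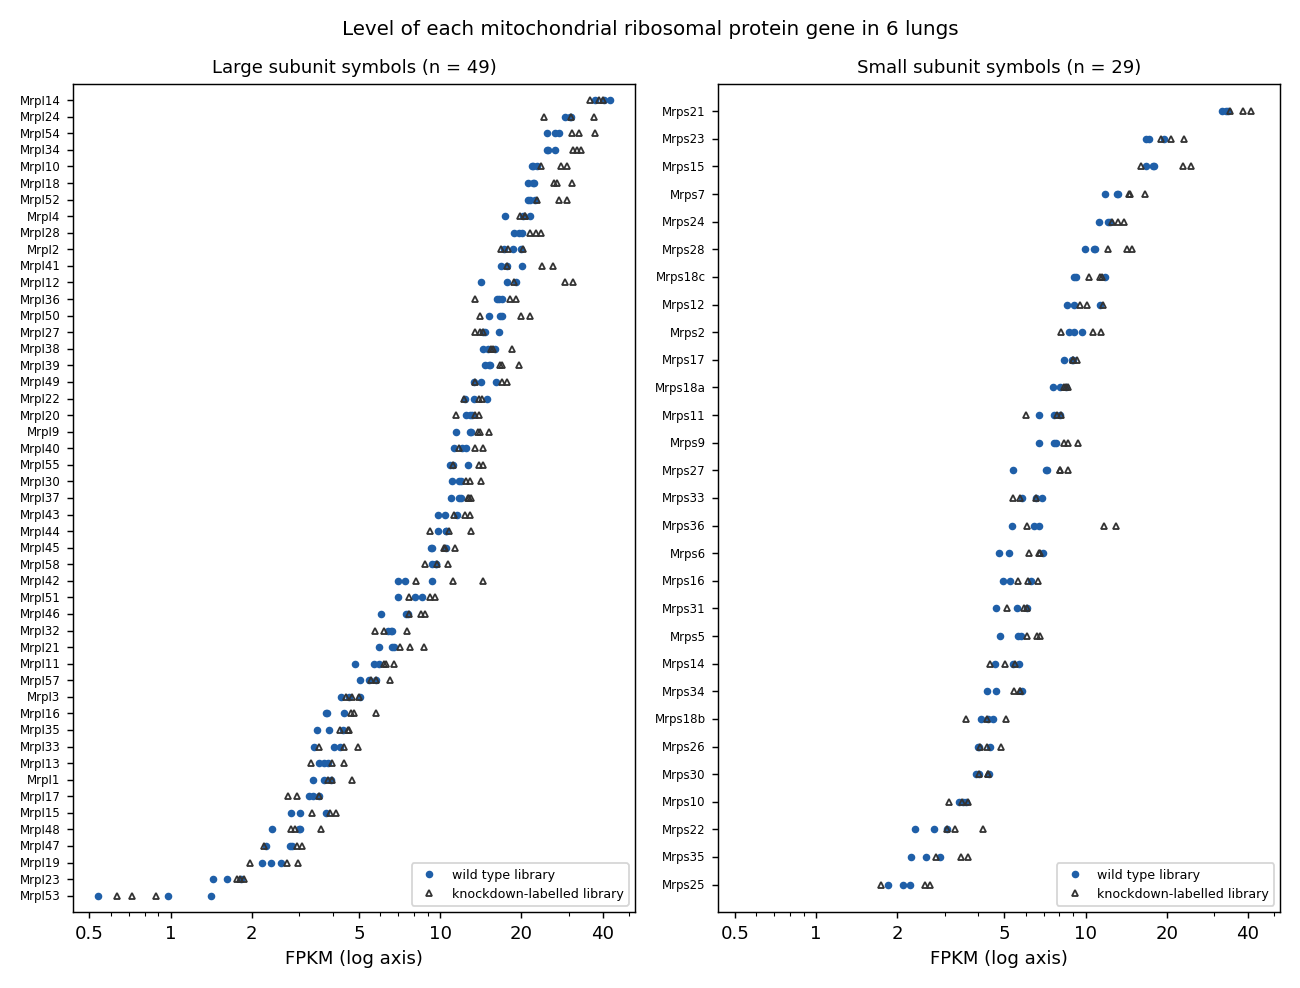
FPKM of the 49 large (left) and 29 small (right) subunit genes on a shared log axis, ordered by wild type mean, with 1 filled point per wild type and 1 open triangle per knockdown-labelled library. Mrpl14 and Mrps21 lead the panels and Mrpl53 and Mrps25 close them, while points of 1 gene lie close together next to the range between genes.

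Between the groups, most members were slightly higher in the knockdown-labelled lungs and none passed the test. Of the 78, 66 (84.6%) had a positive log2 fold change, against 52.9% of all 17728 genes tested. The median was 0.14, a difference of 10.5%, against 0.01 for all genes tested. By edgeR's quasi-likelihood test with Benjamini-Hochberg adjustment at 0.05, 0 members were called, where 0.0338% of all genes tested were (0.00564% higher and 0.0282% lower). In that test the smallest adjusted p of a member was 0.153. DESeq2 and limma also called 0 members at that threshold, where DESeq2 called 849 of all genes. In data simulated with edgeR's own dispersion estimates, DESeq2 made 57 false calls where edgeR made 7. That setting follows edgeR's model and holds no shift shared by the genes of a library. It therefore cannot judge the 849 calls. By the unadjusted p of these 2 other tools under 0.05, 11 members were higher with DESeq2 (8.06% of all genes) and 19 of 77 with limma (8.74% of all genes). At an unadjusted p under 0.05, 16 members (20.5%) were higher and 0 lower, where 8.48% of all genes tested were higher and 8.52% lower. In 22 members all 3 knockdown-labelled libraries lay above all 3 wild type ones (11.3% of all genes tested), and in 1 member, Mrpl27, all lay below (11.6% of all). Mrpl27 was named after its values were seen. In whole-organ RNA, more cells of a mitochondria-rich type and more messenger per cell cannot be told apart.

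The higher levels were mainly in 2 of the 3 knockdown-labelled libraries. Summed over all members the level was 824.6, 803.0 and 847.2 FPKM in wild type and 865.7, 964.5 and 975.8 FPKM in the knockdown-labelled lungs. As the median over members of the log2 ratio to the wild type mean, the libraries stood at 0.0025, -0.07 and 0.05 in wild type and at 0.06, 0.20 and 0.22 in the knockdown-labelled group. Replicate 1 of that group was thus next to wild type replicate 3, and replicates 2 and 3 were above. Knockdown-labelled replicate 2 was the highest library for 30 members and replicate 3 for 29, whereas replicate 1 was the lowest of all 6 for 18. Wild type replicates 1 to 3 were the lowest for 16, 30 and 9 members. Without knockdown-labelled replicate 1, 28 members were higher at an unadjusted p under 0.05 (9.65% of all genes). The count was 11 without wild type replicate 3 (9.19% of all genes), 6 without wild type replicate 1 (4.43% of all genes), 5 without wild type replicate 2 (5.49%), 6 without knockdown-labelled replicate 2 (7.53%) and 6 without knockdown-labelled replicate 3 (7.05%).

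Heart muscle transcripts also differed between the libraries. The list includes 3 genes of muscle mitochondria, so a list of 14 sarcomere genes was used as well. The mean log2 CPM (counts scaled to a common library size) of the heart muscle list was 3.09, 3.53 and 6.02 in wild type, against 6.32, 8.18 and 6.59 among the knockdown-labelled lungs. The libraries with like heart muscle levels were wild type replicate 3 and knockdown-labelled replicates 1 and 3. Knockdown-labelled replicate 1 against wild type replicate 3 had a median log2 ratio of -0.03 over the members, with 36 of 78 higher, at a heart muscle difference of 0.30. Knockdown-labelled replicate 3 against replicate 1 had a median of 0.17, with 66 of 78 higher, at a heart muscle difference of 0.27. Where heart muscle differed more, wild type replicate 3 against the mean of replicates 1 and 2 had a median of 0.07 with 58 of 78 higher (heart muscle difference 2.71). Knockdown-labelled replicate 2 against replicate 1 had a median of 0.16 with 63 of 78 higher (heart muscle difference 1.86). With the heart muscle level as a covariate the median of the members was 0.04 and 1 was higher at an unadjusted p under 0.05 (3.27% of all genes). With the sarcomere genes it was 0.03, also with 1 higher (3.64% of all genes). The heart muscle level was higher in every knockdown-labelled than in every wild type library, so in this fit it and the label cannot be told apart.

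Other tissues also differed between libraries. Skeletal muscle markers summed to 99.4, 38.9 and 557 FPKM in wild type and to 252, 91.6 and 1390 FPKM in the knockdown-labelled lungs, with all 9 log2 fold changes positive and no marker at 0. Liver markers summed to 8.55, 3.05 and 1.14 against 0.36, 1.84 and 43.8 FPKM over the 3 tested of 5. The replicate with most skeletal muscle and liver RNA, knockdown-labelled replicate 3, was also the one with the highest summed level of the members (975.8 FPKM). Knockdown-labelled replicate 2 came close to it (964.5 FPKM) with 91.6 FPKM of skeletal muscle and 1.84 FPKM of liver markers. Wild type replicate 3, with 557 FPKM of skeletal muscle markers, had a member sum of 847.2 FPKM. The part of these tissues in the members' levels was not tested. Brown fat markers had 5 of 6 positive log2 fold changes, with sums of 12.4 to 30.6 against 32.6 to 74.4 FPKM. Of these markers Cox7a1 is also on the heart muscle list, so the brown fat sum is not separate from heart muscle. In knockdown-labelled replicate 2, Cox8b stood at 39.19 and Cox7a1 at 19.48 of the 74.4 FPKM. Of the erythroid markers 4 of 8 were positive. Ucp1 and Elovl3 of brown fat and Serpina1a of liver were listed at 0 in at least 1 library.

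**Figure D2:**
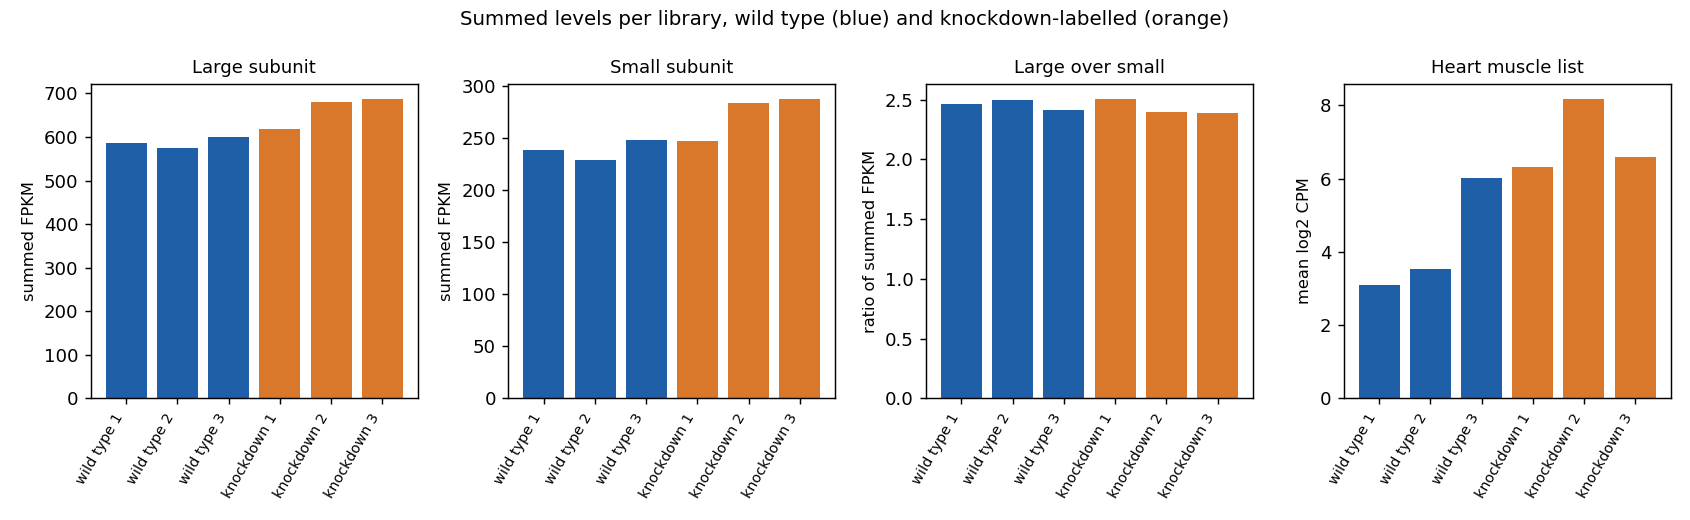
Bars give, for each of the 6 libraries, the summed FPKM of the large and of the small subunit genes, the ratio of these sums, and the mean log2 CPM of the 22 heart muscle genes. Knockdown-labelled replicates 2 and 3 are highest for both subunits, the ratio lies between 2.39 and 2.51 everywhere, and heart muscle is lowest in wild type replicates 1 and 2.

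Sorted by symbol, the large and the small subunit had similar medians and shares. The median log2 fold change was 0.14 for the large and 0.15 for the small subunit. Of these genes 42 of 49 and 24 of 29 were positive, against 52.9% of all genes tested. At an unadjusted p under 0.05, 10 large (20.4%) and 6 small subunit genes (20.7%) were higher, against 8.48% of all genes tested. Groups did not overlap, with the knockdown-labelled one above, for 14 large (28.6%) and 8 small subunit genes (27.6%), against 11.3% of all genes tested, and 1 large subunit gene lay below. The large subunit summed to 586, 574 and 599 FPKM in wild type and to 619, 681 and 688 FPKM in the knockdown-labelled lungs, without overlap. The small subunit summed to 238, 229 and 248 against 247, 284 and 288 FPKM, where knockdown-labelled replicate 1 fell within the wild type range. The ratio of the sums, large over small, was 2.46 ± 0.0427 in wild type and 2.43 ± 0.0666 in the knockdown-labelled libraries (SD, n = 3 each). The groups' ratios overlapped. No test of the difference between the subunits was made over the members. Large minus small, the medians differed by -0.011, by 0.046 among members with neither an overlap nor a pseudogene row and by -0.037 with embryo sex as a covariate, so the sign depends on the setting. The shares depended on the set too. Among members with neither an overlap nor a pseudogene row, all knockdown-labelled libraries lay above wild type for 9 of 23 large (39.1%) and 2 of 13 small subunit genes (15.4%). At an unadjusted p under 0.05, 7 large (30.4%) and 2 small ones (15.4%) were higher.

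Symbols do not always tell the subunit. In structures of the mammalian ribosome the proteins of Mrps30 and Mrps18a sit in the large subunit (as mL65 and mL66), the product of Mrps36 is now counted as a part of the 2-oxoglutarate dehydrogenase complex, and Dap3, Ptcd3, Chchd1, Aurkaip1 and Gadd45gip1 encode ribosomal proteins under other names. Sorted this way, 52 large subunit genes had a median log2 fold change of 0.14 and 30 small subunit genes of 0.15. All knockdown-labelled libraries lay above wild type for 26.9% of these large and 36.7% of these small subunit genes, against 11.3% of all genes tested. By the standard names of the proteins, the 46 members whose name marks a bacterial counterpart had a median of 0.14 with 37 positive. The 31 with a mitochondrial name, which include the paralogs Mrps18a and Mrps18b, had a median of 0.14 with 28 positive. Of all genes tested, 52.9% were positive.

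**Figure D3:**
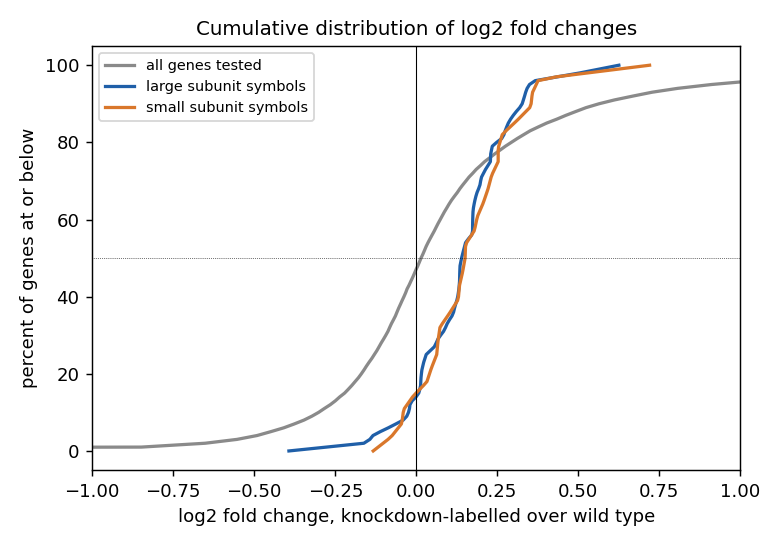
Percent of genes (vertical) at or below each log2 fold change (horizontal, cropped at -1 and 1) for all 17728 genes tested and for large and small subunit symbols. Both subunits lie right of all genes at the middle of the distribution, with medians of 0.14 and 0.15 against 0.01, and run close to each other.

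Among large subunit genes, Mrpl18 had the smallest p. Its protein belongs to the central protuberance, the knob that faces the small subunit's head. Mrpl18 (ENSMUSG00000057388, chromosome 17, 13130236 to 13135232 on the minus strand in the table's coordinates, whose build is not named) overlaps Tcp1. It stood at 22.08, 21.19 and 22.27 FPKM in wild type and at 26.48, 30.82 and 27.18 FPKM in the knockdown-labelled lungs, without overlap. Its log2 fold change was 0.36 (standard error 0.09, edgeR adjusted p = 0.153). Mrpl54, mitochondria-specific, was at 26.75, 24.86 and 27.60 against 32.83, 30.83 and 37.44 FPKM (log2 fold change 0.34, standard error 0.09, edgeR adjusted p = 0.174). Every knockdown-labelled library was above every wild type one, replicate 3 most. Mrpl34, a small protein with a bacterial relative, was at 26.59, 25.08 and 24.80 against 31.11, 33.31 and 32.16 FPKM (log2 fold change 0.33, edgeR adjusted p = 0.188). In this gene the knockdown-labelled replicates were close to each other, replicate 1 included.

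Mrpl12 and Mrpl10 encode the stalk that recruits translation factors, and Mrpl12 is also known as a partner of the mitochondrial RNA polymerase. Mrpl12 stood at 17.68, 14.20 and 19.02 FPKM in wild type and at 18.85, 31.07 and 29.11 FPKM in the knockdown-labelled lungs. Knockdown-labelled replicate 1 lay within the wild type range, and the log2 fold change of 0.63 had a 95% confidence interval of 0.14 to 1.11 (edgeR adjusted p = 0.214). Mrpl10 stood at 22.05, 22.92 and 21.96 against 23.71, 29.46 and 27.99 FPKM, without overlap (log2 fold change 0.27, edgeR adjusted p = 0.254). The gap between its groups was set by knockdown-labelled replicate 1 here too.

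Of the remaining large subunit genes named by their p, Mrpl52 was at 21.7 ± 0.601 against 26.7 ± 3.41 FPKM, Mrpl28 at 19.5 ± 0.661 against 22.6 ± 1.12 FPKM and Mrpl39 at 15.0 ± 0.356 against 17.7 ± 1.60 FPKM (SD, n = 3 each). None of these 3 overlapped between the groups, and their edgeR adjusted p-values were 0.230, 0.264 and 0.273. Mrpl16 and Mrpl9, outside the naming rule, were the other 2 higher at an unadjusted p under 0.05. At the other end, Mrpl14 had a log2 fold change of -0.08 and Mrpl53 of -0.39, the latter with an interval of -1.40 to 0.61.

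**Figure D4:**
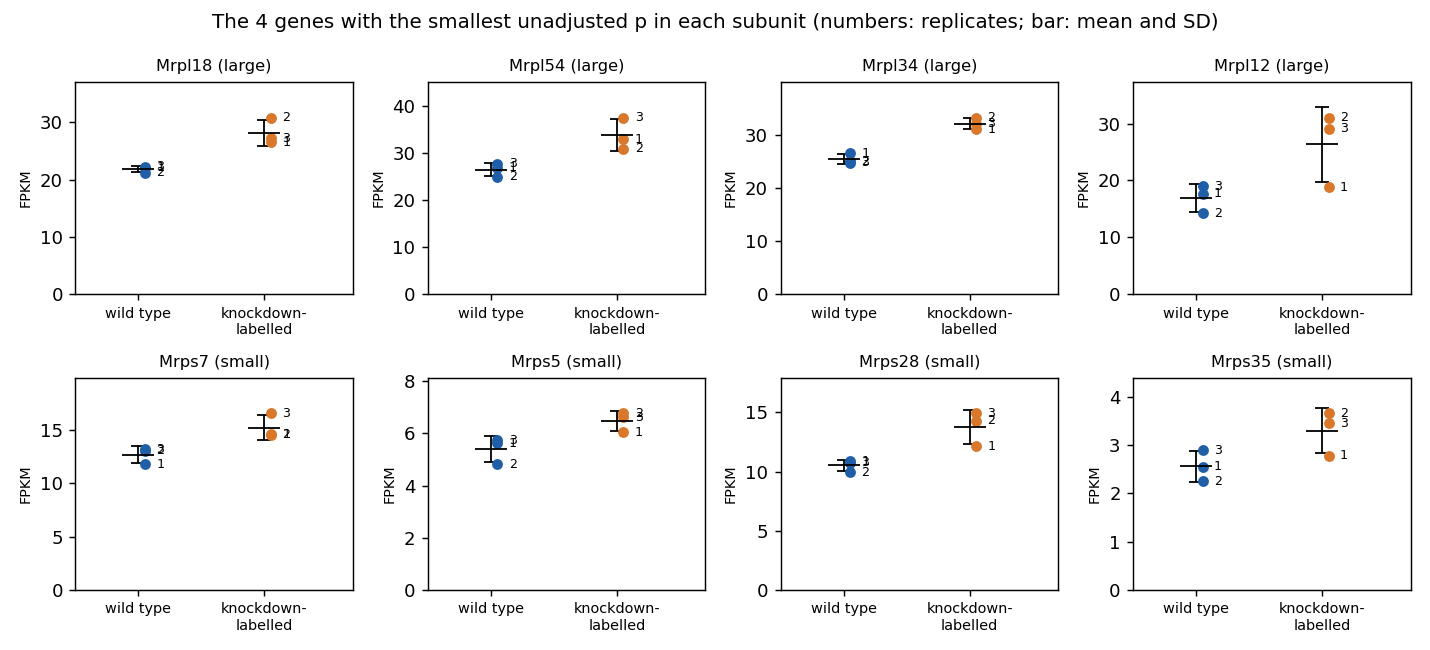
FPKM of the 4 large and 4 small subunit genes with the smallest unadjusted p, with 1 point per library, its replicate number, and the group mean and SD as a bar. Groups do not overlap for Mrpl18, Mrpl54, Mrpl34, Mrps7, Mrps5 and Mrps28, while replicate 1 of the knockdown-labelled group reaches into the wild type range for Mrpl12 and Mrps35.

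In the small subunit Mrps7, a protein of its head, had the smallest p. The gene (chromosome 11, 115494751 to 115498862, plus strand) overlaps Gga3 and Mif4gd. It stood at 11.80, 13.05 and 13.20 FPKM in wild type and at 14.54, 14.59 and 16.56 FPKM in the knockdown-labelled lungs, a log2 fold change of 0.25 (standard error 0.09, edgeR adjusted p = 0.222). Mrps5, near the messenger's entry, was at 5.63, 4.82 and 5.74 against 6.04, 6.77 and 6.62 FPKM (log2 fold change 0.25, edgeR adjusted p = 0.247). Neither overlapped between the groups. Mrps28 stood at 10.85, 9.94 and 10.76 against 12.14, 14.29 and 14.92 FPKM, also without overlap, with a log2 fold change of 0.38 (edgeR adjusted p = 0.249). Mrps9 (7.40 ± 0.584 against 8.76 ± 0.569 FPKM) and Mrps27, a protein with RNA-binding repeats (6.57 ± 1.03 against 8.22 ± 0.327 FPKM), did not overlap either. Mrps35 (2.56 ± 0.320 against 3.30 ± 0.461 FPKM) and Mrps23 (17.9 ± 1.45 against 21.0 ± 2.08 FPKM) did.

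The member with the highest log2 fold change was not a ribosomal protein. Mrps36, the adaptor subunit of the 2-oxoglutarate dehydrogenase complex of the citric acid cycle, stood at 6.43, 5.35 and 6.72 FPKM in wild type and at 6.05, 12.93 and 11.69 FPKM in the knockdown-labelled lungs. Replicate 1 lay within the wild type range and the other two were well above it (log2 fold change 0.72, 95% confidence interval 0.04 to 1.40, edgeR adjusted p = 0.275). The gene has 3 pseudogene rows in the table, and reads shared with them make its level uncertain. The other subunits of that complex were looked at after this value was seen. Ogdh stood at 35.70, 36.67 and 39.37 against 43.17, 66.77 and 49.73 FPKM, Dld at 22.26, 21.92 and 27.13 against 28.80, 33.87 and 30.00 FPKM, both without overlap, and Dlst at 18.29, 16.98 and 20.12 against 18.22, 24.34 and 20.00 FPKM. None passed the test (edgeR adjusted p = 0.213, 0.191 and 0.558).

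Mrps18a, Mrps18b and Mrps18c are paralogs that all descend from 1 bacterial protein and occupy different places in the ribosome. Mrps18a, in the large subunit, was at 7.59, 8.01 and 8.44 FPKM in wild type and 8.30, 8.47 and 8.60 FPKM in the knockdown-labelled lungs. Mrps18c, which keeps the ancestral place, was at 9.03, 9.18 and 11.78 against 11.31, 10.33 and 11.48 FPKM, and Mrps18b at 4.54, 4.09 and 4.34 against 3.60, 5.09 and 4.30 FPKM. All 3 overlapped between the groups, with log2 fold changes of 0.07, 0.13 and -0.0090. Wild type levels put Mrps18c above Mrps18a above Mrps18b in every library. Mrps30 stood at 4.11 ± 0.248 against 4.24 ± 0.173 FPKM.

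The 5 ribosomal proteins under other names had positive log2 fold changes, although Ptcd3 turned to -0.17 with either muscle covariate and Gadd45gip1 to -0.075 with sarcomere genes. Chchd1 was at 22.46, 20.88 and 23.64 against 24.46, 28.21 and 25.70 FPKM (log2 fold change 0.22), and Aurkaip1 at 15.58, 15.20 and 14.35 against 16.25, 16.88 and 16.70 FPKM (0.13). Dap3, a GTP-binding protein first known from cell death, was at 7.46, 7.44 and 6.96 against 8.26, 7.62 and 8.13 FPKM (0.12). These 3 did not overlap between the groups, where 11.3% of all genes tested were higher without overlap. Ptcd3 (log2 fold change 0.15) and Gadd45gip1 (0.14) overlapped. The smallest edgeR adjusted p among the 5 genes was 0.32.

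**Figure D5:**
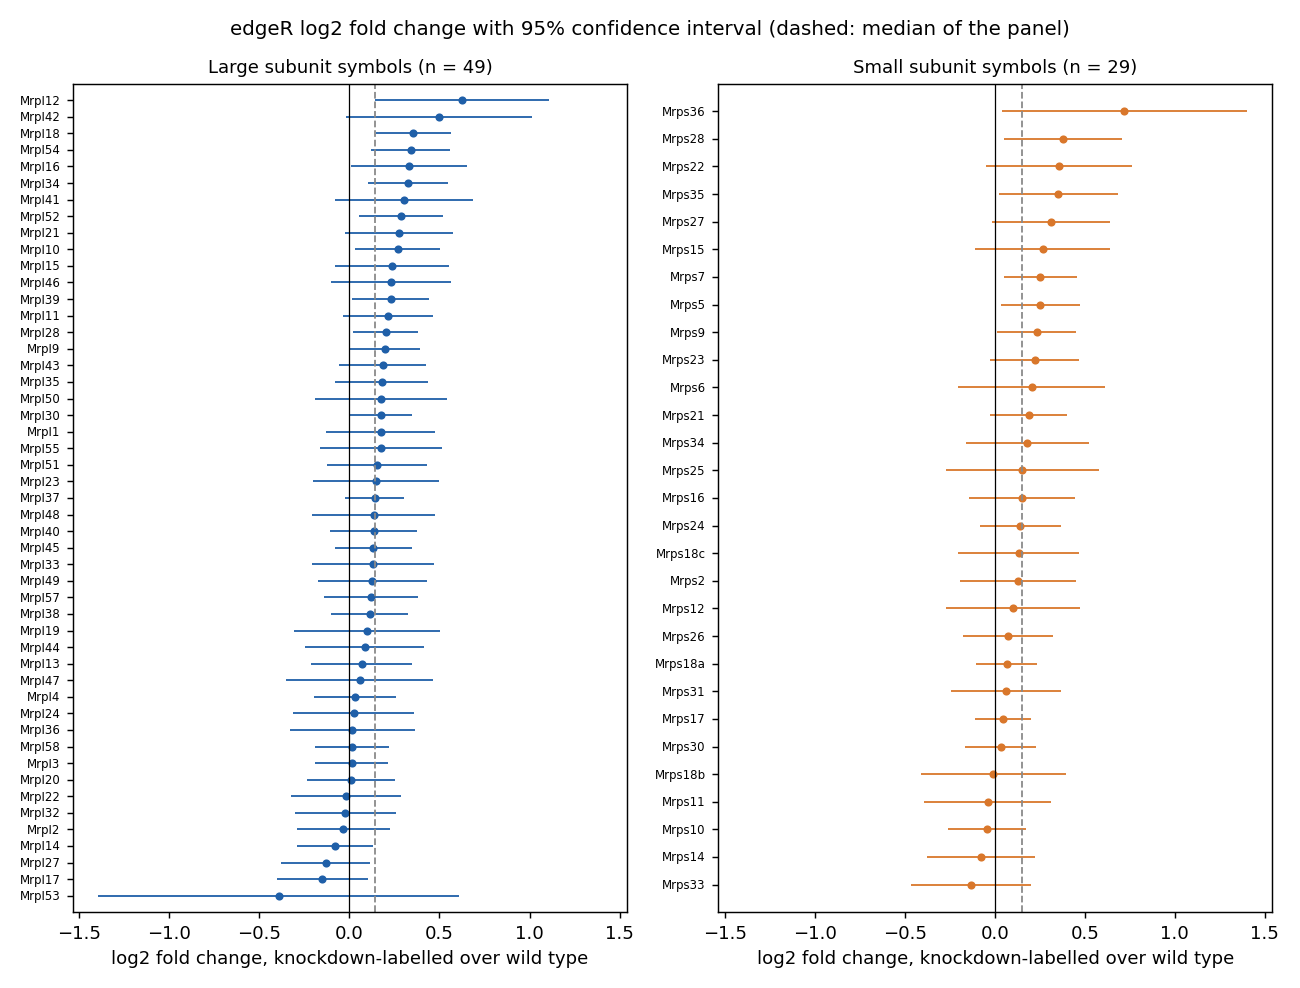
edgeR log2 fold change (point) and 95% confidence interval (line) of each of the 49 large and 29 small subunit symbols, with the median of each panel dashed. Of the 78 points 66 lie right of 0, with medians of 0.14 and 0.15, and Mrps36, Mrpl12 and Mrpl42 lie farthest right.

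At an unadjusted p under 0.05, 3 of 35 other genes of mitochondrial translation (8.57%, against 8.48% of all genes tested) were higher and 1 was lower, 0 were called at the adjusted threshold, and the median was 0.11. Lrpprc, which keeps mitochondrial messengers stable, was at 4.27, 3.92 and 4.27 against 5.29, 6.78 and 5.70 FPKM, and the methionyl-tRNA synthetase gene Mars2 at 1.59, 1.24 and 1.81 against 1.15, 1.18 and 1.01 FPKM. Both were without overlap, in opposite directions (edgeR adjusted p = 0.141 and 0.216). Of 29 genes for assembly of the ribosome 2 (6.90%) were higher and 0 lower, with a median of 0.08. Both shares are near that of all genes. These were Ndufab1, the acyl carrier protein that is also a complex I subunit (5.81, 5.90 and 5.98 against 7.36, 9.43 and 7.77 FPKM), and the ribosomal RNA methyltransferase gene Mrm1 (1.77, 1.43 and 2.00 against 2.66, 2.67 and 2.55 FPKM).

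Among 19 regulators of mitochondrial genes the median was 0.05. By the unadjusted p, 3 were higher (15.8%, against 8.48% of all genes tested) with none lower. Esrra, an orphan nuclear receptor that drives such genes, stood at 5.53, 5.34 and 6.09 against 8.09, 8.23 and 7.74 FPKM (log2 fold change 0.49, edgeR adjusted p = 0.094). Its partner Ppargc1a was at 2.06, 2.58 and 3.39 against 4.30, 7.66 and 4.36 FPKM (edgeR adjusted p = 0.177). Both were above wild type in every knockdown-labelled library. The cytosolic ribosomal proteins, 83 of them tested, had a median of 0.04 with 6 higher (7.23%, against 8.48% of all genes tested) and 0 lower. Of these, Rplp1 and Rps26 had the smallest p. The sum of the cytosolic set was highest in knockdown-labelled replicate 1 (14471 FPKM) and lowest in replicate 2 (10556 FPKM). Its order of libraries was thus not that of the mitochondrial set.

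Nuclear genes of oxidative phosphorylation had a median of 0.47 over 30 tested rows. At an unadjusted p under 0.05, 28 were higher (93.3%, against 8.48% of all genes tested), and 0 passed the adjusted threshold. The smallest p belonged to Uqcrfs1 of complex III (log2 fold change 0.56) and Ndufb5 of complex I (0.33). Their sums were 1280, 1226 and 1526 FPKM in wild type and 1631, 2225 and 1811 FPKM in the knockdown-labelled lungs. In a list of 15 genes of the mitochondrial genome itself, not all of them coding for protein, the median was 0.58 (-0.21 with the heart muscle covariate). Without that covariate, 0 of these 15 genes were past an unadjusted p of 0.05. Their sum was lowest of all libraries in knockdown-labelled replicate 1 (13574 FPKM) and highest in replicate 2 (33846 FPKM). The libraries were made from poly(A) RNA, per the labels. Myc and nucleolar genes had a median of 0.06 with 1 of 17 higher by the unadjusted p (5.88%, against 8.48% of all genes tested). Cell cycle genes had a median of -0.04 with 0 of 20 past that p.

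Members lie scattered over 17 chromosomes, with 11 on chromosome 11 and 8 on chromosome 17. A start site of a tested gene on the opposite strand, facing away within 1000 bases, was found for 20 members (25.6%) and for 10.2% of all genes tested, in the table's coordinates. Mrps12 is 172 bases from Sars2, the mitochondrial seryl-tRNA synthetase gene, and Mrpl49 is 59 bases from Fau, whose product includes a cytosolic ribosomal protein. Neither pair differed past an unadjusted p of 0.05 in either gene. Mrpl46 and Mrps11, members of different subunits, overlap head to head on chromosome 7. Overlap with some other row was found for 40 members, and the strand setting of the counts is not given in the sources used here, so reads of overlapping genes cannot be told apart. Among the 36 members with neither an overlap nor a pseudogene row the median log2 fold change was 0.17, with 9 (25%) higher at an unadjusted p under 0.05, against 8.48% of all genes tested.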

How the data were processed

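RNA of 6 whole lungs was sequenced after poly(A) selection, per the labels' protocols. The authors deposited raw counts per gene and FPKM values in 1 table. Per the submitters' processing notes, cutadapt 1.9.1, HISAT2 2.0.1 and HTSeq 0.6.1 were used. Not given in the sources used here are the build and whether counting used strand. FPKM values as deposited equalled those recomputed from counts, exonic length and total counts within 0.006. Counts were tested with edgeR 4.0.16 (TMM scaling, filterByExpr, quasi-likelihood test, R 4.3.3) across 17728 genes with Benjamini-Hochberg adjustment at 0.05, wild type against knockdown-labelled, 3 libraries each. In data simulated for this comparison (17478 genes), it recovered 41 of 100 genes changed by 1 and 79 of 100 changed by 2 on the log2 scale, with 7 false calls. DESeq2 recovered 61 and 87 of them, with 57 false calls. The simulated counts were drawn with edgeR's own dispersion estimates. Changes as small as those of the members (at most 0.72) were not simulated, nor were shifts shared by the genes of a library. Recovery at the members' sizes is therefore not known. Alternatives were DESeq2 1.42.0, limma 3.58.1 on log2(FPKM + 1) and log2(FPKM + 0.1), other scalings, no filter, each library left out, members without overlaps or pseudogenes, and heart muscle level or embryo sex as covariates. The sarcomere covariate and the fit without Mrps36 were added after seeing the data. Members and lists were chosen with earlier results of these data known. Named were Prmt5, the 8 smallest p and the 3 highest and 3 lowest FPKM in each subunit, Mrps18a, Mrps18b, Mrps18c, Mrps30, Mrps36, the 5 proteins under other names and the 2 smallest p of other lists. Promoter sequences are from RefSeq.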

Additional observations from a re-analysis of the deposited data

How the results depend on the processing

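No member passed the adjusted threshold of edgeR, DESeq2 or limma under any of the 19 settings, and of 462 log2 fold changes of the 29 named members 441 kept their direction. The scaling on totals without mitochondrial, erythroid, heart and top genes gave no median for the genes of the mitochondrial genome, which it leaves out. No paired analysis was possible because the replicate numbers follow accession order and pair nothing.

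Over all genes, the 6 adjusted calls became 81 without the filter, 849 with DESeq2, 3 with limma on log2(FPKM + 0.1), 1 with heart muscle and 1 with sarcomere genes as covariate, 0 with embryo sex, and 0 to 17 with a library left out. The members higher at an unadjusted p became 1 with either muscle covariate, 9 among members without overlaps or pseudogenes, and 5 to 28 with a library left out; the lower ones 0 to 1. With heart muscle as covariate the medians were 0.039 for all members, 0.050 for the large and 0.036 for the small subunit, and with sarcomere genes 0.030, 0.056 and 0.029. The difference of medians, large minus small, was 0.014 with heart muscle, 0.028 with sarcomere genes, -0.037 with sex, 0.046 without overlaps or pseudogenes and -0.036 to 0.035 with a library left out.

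Log2 fold changes that turned negative with heart muscle and with sarcomere genes were Mrpl19 (-0.11, -0.12), Mrps18a (-0.027, -0.025), Mrps18c (-0.068, -0.038), Mrps22 (-0.050, -0.077), Mrps23 (-0.032, -0.047), Mrps25 (-0.088, -0.099) and Ptcd3 (-0.17, -0.17), and the median of the mitochondrial genome's genes (-0.21, -0.28). Gadd45gip1 was -0.075 with sarcomere genes, Mrpl24 -0.054 with sex, and Mrps18b 0.00046 with total counts and 0.029 with sex. With a library left out the range was -0.088 to 0.27 for Gadd45gip1, -0.015 to 0.26 for Mrpl19, -0.12 to 0.15 for Mrpl24, -0.16 to 0.12 for Mrps18b, -0.00032 to 0.085 for Mrps30 and -0.13 to 0.0069 for Prmt5. The cause was not tested.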
